A study of Mus musculus with 12 samples.

Results

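The Slit, Robo and netrin guidance genes were followed in bulk RNAseq of neonatal mouse cardiac fibroblasts infected with *Sox17* and *Erg* retroviruses or with control virus. The 10 members were fixed by symbol: the ligands *Slit2* and *Slit3*, the receptors *Robo1*, *Robo2* and *Robo4*, the netrins *Ntn1* and *Ntn4*, the netrin receptors *Unc5b* and *Unc5c*, and the Robo adaptor *Srgap1*. All 10 were found among the 35727 Ensembl genes of the count table, and all 10 were among the 15506 genes with enough counts to be tested. The 6 groups were control and *Sox17*-*Erg* at Day 3, Day 7 and 4 weeks, with 2 libraries each, 12 in all. Every group came from pooled hearts of newborn C57BL/6J mice, from which PECAM1-positive cells were depleted and THY1-positive cells selected by magnetic beads, kept in EGM2, an endothelial growth medium. *Sox17*-*Erg* cultures received retroviruses carrying the 2 transcription factors, and the headers of the control libraries name the pMX retroviral backbone, with no insert given. No sort after infection is described for these libraries. In such bulk samples, fewer cells of a type and less RNA per cell cannot be told apart. No label says whether the 2 libraries of a group came from separate isolations, so the p-values measure the spread between these libraries, which may be technical.

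Slits are secreted proteins that bind Robo receptors on the cell surface. In the nervous system they repel growing axons, and in vessels they steer endothelial migration and sprouting. Netrins are secreted proteins related to laminins. They attract cells through Dcc and neogenin and repel them through the Unc5 receptors, of which Unc5b is best known from arterial and tip endothelial cells. Robo4 is a Robo family member largely restricted to endothelium, and Srgap1 is a GTPase-activating protein that binds the Robo cytoplasmic tail and turns down Cdc42.

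The libraries held between 19011635 and 41240449 counts. The delivered *Sox17* had 0 to 9 counts in the control libraries and 432 to 1036 CPM (the count divided by the TMM-scaled library size) in the *Sox17*-*Erg* libraries. The 0 counts in 1 control library allow up to 0.0752 CPM, taking 3 counts as the limit. *Erg* ran from 17.1 to 65.2 CPM in the *Sox17*-*Erg* libraries and from 2 to 49 counts in the controls. The second control libraries of Day 3 and Day 7 had more counts of some endothelial genes than the first. *Erg* had 49 and 34 counts in the second libraries against 2 and 2 in the first, and *Cdh5*, the endothelial VE-cadherin, had 309 and 201 counts against 25 and 6. *Pecam1* differed less, with 362 and 308 counts against 345 and 233. Of 10 endothelial markers, 9 were tested and 4, 5 and 7 were higher in *Sox17*-*Erg* at Day 3, Day 7 and 4 weeks, and their summed level was 20.9 to 61.4 CPM in control and 314 to 774 CPM in *Sox17*-*Erg*. *Pecam1* reached 94.6 and 117 CPM at 4 weeks. Of 8 fibroblast markers, 1, 3 and 4 were lower and 0, 1 and 1 higher at Day 3, Day 7 and 4 weeks, with *Tcf21*, a cardiac fibroblast transcription factor, at 86.6 and 118 CPM against 362 and 543 in control at 4 weeks, and *Thy1* at 122 and 132 CPM against 133 and 163 (log2 fold change of -0.22 ± 0.25, SE). The higher one was *Postn*, the matrix protein periostin of activated fibroblasts, with a mean of 1444 CPM against 53.9 in control at 4 weeks (log2 fold change of 4.74 ± 0.30, adjusted p = 1.9e-05). The summed fibroblast level overlapped between arms at Day 3 (25129 to 39098 CPM against 29769 to 35777 in control), was 29669 to 30783 against 19679 to 24273 CPM at Day 7 and 10090 to 10974 against 12479 to 14012 CPM at 4 weeks. The sum is carried by a few abundant genes, and at Day 7 *Pdgfra*, *Dcn* and *Lum* were lower (log2 fold changes of -1.91, -3.16 and -3.33) while *Postn* was higher. Other markers also moved. At 4 weeks 4 of 6 mural markers were higher and 2 lower (summed level 919 to 986 CPM against 159 to 165), and 5 of 5 mesothelial (158 to 247 against 868 to 1364 CPM) and 5 of 6 cardiomyocyte markers (678 to 683 against 1065 to 1315 CPM) were lower. None of 8 macrophage markers was called by edgeR at any time point, also at an unadjusted p under 0.05, nor by DESeq2. Their sum at Day 7 was 842 to 1233 CPM in control and 255 to 423 CPM in *Sox17*-*Erg*. The 4 lymphatic markers summed to 125 to 134 CPM in control and 79.8 to 83.7 CPM in *Sox17*-*Erg* at Day 3, and to 135 to 153 and 134 to 166 CPM at 4 weeks. Among them *Prox1*, a lymphatic transcription factor, was higher at all 3 time points (log2 fold changes of 1.94, 2.95 and 4.78, adjusted p of 0.0128, 0.000827 and 5.25e-05) and *Pdpn* was lower at Day 3 and Day 7. The 6 neural markers summed to at most 14.3 CPM in any library, and *Stmn2* was higher at 4 weeks (log2 fold change of 2.39, adjusted p = 0.0266). The part of these cell types in the results below was not tested.

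*Slit2*, *Robo1*, *Robo2*, *Ntn4* and *Srgap1* were higher in *Sox17*-*Erg* at all 3 time points. The sequences upstream of their start sites are shown because these are the genes on which the results turn. RefSeq promoter windows of 300 bases (250 before and 50 after the start, GRCm38.p6) were found for 9 of the 10 members, 11 windows in all, since *Robo2* has 3. None is given for *Ntn1*. The bases before the start are printed from 5′ to 3′ on the strand of the gene, without those that GENCODE M21 places in an exon of the gene. The *Slit2* stretch is chr5:47982905-47983137 (plus strand), that of *Robo1* chr16:72662899-72663148 (plus strand, in an intron of its longer annotated form), that of *Robo2* chr16:74411826-74412075 (minus strand), that of *Ntn4* chr10:93640799-93641048 (plus strand, inside the annotated gene and in no exon) and that of *Srgap1* chr10:122047316-122047565 (minus strand). Capitals mark the SOX motif.
*Slit2*: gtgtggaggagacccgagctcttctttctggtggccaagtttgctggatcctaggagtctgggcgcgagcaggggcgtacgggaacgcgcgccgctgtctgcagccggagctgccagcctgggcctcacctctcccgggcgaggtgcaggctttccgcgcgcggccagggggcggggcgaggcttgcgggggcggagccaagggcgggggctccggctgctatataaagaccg
*Robo1*: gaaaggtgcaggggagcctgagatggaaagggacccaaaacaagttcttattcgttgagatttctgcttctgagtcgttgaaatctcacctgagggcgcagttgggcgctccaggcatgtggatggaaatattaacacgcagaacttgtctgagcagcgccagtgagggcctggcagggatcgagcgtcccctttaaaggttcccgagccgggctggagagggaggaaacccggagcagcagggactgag
*Robo2*: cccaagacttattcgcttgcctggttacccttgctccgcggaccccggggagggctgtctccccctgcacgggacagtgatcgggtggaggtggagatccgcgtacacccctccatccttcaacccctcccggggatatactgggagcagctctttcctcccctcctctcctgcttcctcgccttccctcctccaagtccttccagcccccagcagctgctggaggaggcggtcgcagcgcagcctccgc
*Ntn4*: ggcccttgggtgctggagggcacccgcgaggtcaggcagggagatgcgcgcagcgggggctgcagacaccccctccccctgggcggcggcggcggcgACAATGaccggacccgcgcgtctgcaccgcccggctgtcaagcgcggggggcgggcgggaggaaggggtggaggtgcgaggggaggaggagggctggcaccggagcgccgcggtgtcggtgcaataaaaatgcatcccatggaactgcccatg
*Srgap1*: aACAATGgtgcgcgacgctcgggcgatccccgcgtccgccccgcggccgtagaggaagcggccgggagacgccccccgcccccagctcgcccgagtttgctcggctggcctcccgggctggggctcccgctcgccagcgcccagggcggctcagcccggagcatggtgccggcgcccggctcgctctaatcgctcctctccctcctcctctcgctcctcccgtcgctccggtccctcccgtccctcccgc
All windows were searched on both strands for GGAAGT, the core that ETS factors such as Erg bind with a flanking base, and for ACAATG, that of SOX factors. Of all 32851 windows, 23.8% held the first, 12.6% the second and 2.96% both. Of the 11 member windows, 1 held the ETS motif and 3 the SOX motif. Counted from the start, the SOX motif began at position -153 in *Ntn4* and -249 in *Srgap1*, and in *Unc5b* it lay across the start on the opposite strand. The ETS motif was in the window of *Unc5c*, on the opposite strand and inside an annotated exon, at chr3:141465437-141465462, where the plus strand reads as follows, with the motif in capitals.
*Unc5c*: acctcccagcACTTCCcgagtggggg
Neither motif was in the windows of *Slit2*, *Slit3*, *Robo1*, *Robo2* and *Robo4*. A match in such a window is a description of its letters, and no binding was measured in these data.

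*Slit2* was higher in *Sox17*-*Erg* at every time point. *Slit2* (ENSMUSG00000031558, GRCm38 chr5:47983138-48307733) had 38.1 and 41.5 CPM in the control libraries at Day 3, 39.1 and 55.7 CPM at Day 7, and 54.9 and 48.9 CPM at 4 weeks. *Sox17*-*Erg* libraries had 337 and 257 CPM at Day 3, 446 and 335 CPM at Day 7, and 409 and 243 CPM at 4 weeks. The lowest *Sox17*-*Erg* library thus stood above every control library. The log2 fold changes were 2.90 ± 0.29 (SE, n = 2 libraries per group, adjusted p = 0.000803), 3.04 ± 0.29 (adjusted p = 0.000299) and 2.65 ± 0.29 (adjusted p = 0.000290) in edgeR's quasi-likelihood test with Benjamini-Hochberg adjustment over all tested genes. *Slit2* stayed past the threshold under all 21 alternatives at each of the 3 time points. Within neither arm did *Slit2* pass the test between any time points, so the difference was there by Day 3.

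*Slit3* differed from *Slit2* in that it moved with time in both arms. *Slit3* (chr11:35121224-35708507) had 48.8 and 31.9 CPM in control at Day 3, 110 and 185 CPM at Day 7, and 479 and 288 CPM at 4 weeks. The *Sox17*-*Erg* libraries had 79.8 and 82.2 CPM at Day 3, 246 and 234 CPM at Day 7, and 713 and 504 CPM at 4 weeks. Both *Sox17*-*Erg* libraries were above both controls at each time point, but the gap was small beside the rise with time. From Day 3 to 4 weeks *Slit3* rose by a log2 fold change of 3.25 ± 0.35 in control (adjusted p = 0.000554) and 2.91 ± 0.34 in *Sox17*-*Erg* (adjusted p = 0.000816). Between arms the log2 fold changes were 1.0 ± 0.33, 0.70 ± 0.32 and 0.67 ± 0.32 at Day 3, Day 7 and 4 weeks, and edgeR's adjusted p of 0.0746, 0.17 and 0.169 did not pass the threshold. The Day 3 difference was called by the DESeq2 Wald test (adjusted p = 0.0166), and all 3 were called with no filter on low counts (adjusted p of 0.000932, 0.0199 and 0.0286). With the replicate number as a block within each time point, the adjusted p was 0.021 at Day 3 and 0.0499 at Day 7.

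The receptors *Robo1* and *Robo2* were higher in *Sox17*-*Erg* at all 3 time points, by less than their ligand *Slit2*. *Robo1* (chr16:72308306-73046095) had 31.9 and 41.1 CPM in control at Day 3, 28.3 and 40.4 CPM at Day 7, and 32.8 and 32.2 CPM at 4 weeks. With *Sox17*-*Erg* it had 69.0 and 81.1 CPM at Day 3, 81.7 and 88.0 CPM at Day 7, and 77.2 and 74.3 CPM at 4 weeks, all above every control library. Its log2 fold changes were 1.04 ± 0.18, 1.30 ± 0.18 and 1.22 ± 0.18, with adjusted p of 0.00953, 0.00172 and 0.00154 in edgeR. Without the first control library of Day 3 the Day 3 adjusted p was 0.0769. *Robo2* (chr16:73891839-74411825) had 14.4 and 16.5 CPM in control at Day 3, 21.5 and 30.3 CPM at Day 7, and 15.9 and 19.7 CPM at 4 weeks. With *Sox17*-*Erg* it had 50.2 and 37.2 CPM, then 59.4 and 51.0 CPM, then 74.9 and 65.6 CPM. The arms did not overlap, and the control libraries were highest at Day 7. Its log2 fold changes were 1.5 ± 0.21, 1.09 ± 0.21 and 1.98 ± 0.21, with adjusted p of 0.00416, 0.00766 and 0.000279, and the Day 7 call was lost without the first *Sox17*-*Erg* library of Day 7 (adjusted p = 0.0601). *Robo2* was the receptor with a rise in *Sox17*-*Erg* from Day 3 to 4 weeks (log2 fold change of 0.68 ± 0.20, adjusted p = 0.0325). That call was lost with the replicate number as a block within each time point (adjusted p = 0.119) and without the second *Sox17*-*Erg* library of Day 3 or either of 4 weeks (adjusted p from 0.0623 to 0.184).

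*Robo4*, the Robo receptor of endothelium, had low counts throughout, at most 33 in any of the 12 libraries. *Robo4* (chr9:37401897-37415115) had 4 and 18 counts in control at Day 3, 3 and 22 counts at Day 7, and 3 and 2 counts at 4 weeks. In *Sox17*-*Erg* it had 4 and 10 counts at Day 3, 33 and 15 counts at Day 7, and 33 and 4 counts at 4 weeks, or at most 1.17 CPM. The groups overlapped at Day 3 and Day 7, where the higher control value came from the second library, the one in which *Cdh5* was also high. The fitted log2 fold changes were -0.57 ± 1.19, 0.66 ± 1.08 and 3.01 ± 1.31, with adjusted p of 0.79, 0.714 and 0.132. Without both second control libraries they were 1.08, 2.72 and 3.05, with adjusted p of 0.694, 0.298 and 0.0888. At 4 weeks the control counts sat at the limit of 3 per library, and the pooled counts of 5 and 37 gave a ratio of 8.64 with an exact 95% interval of 3.39 to 28.2, which covers counting error only. Most of the 37 came from 1 library, and without the first *Sox17*-*Erg* library of 4 weeks the log2 fold change was 0.88. With no filter on low counts the 4-week adjusted p was 0.023. A difference in *Robo4* was thus not shown at this depth. The endothelial markers summed to 610 to 774 CPM in the *Sox17*-*Erg* libraries of 4 weeks, of which *Cdh5* alone made 394 and 496 CPM. Single markers of that list ranged there from a mean of 0.0177 CPM (*Cldn5*) to 445 CPM (*Cdh5*), with *Esam* at 2.13 and *Egfl7* at 3.31 CPM.

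**Figure D1:**
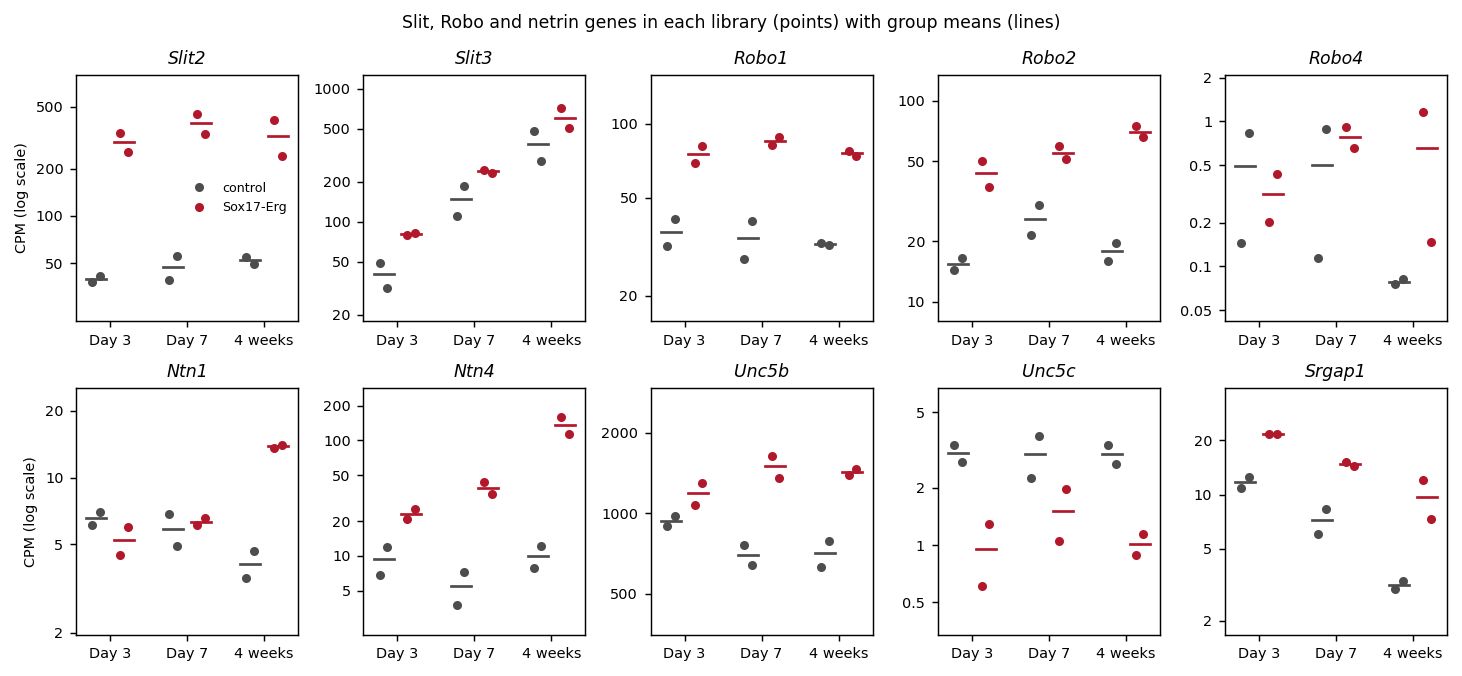
CPM of the 10 genes on log axes, 1 panel per gene, at Day 3, Day 7 and 4 weeks. Points are single libraries, control in grey and *Sox17*-*Erg* in red, and lines are means of 2 libraries. *Slit2* lies apart between arms at all 3 time points, *Ntn4* climbs to 114 and 159 CPM in *Sox17*-*Erg*, *Slit3* climbs in both arms, and *Robo4* stays at or below 1.17 CPM.

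*Ntn4*, a netrin found in basement membranes, was higher in *Sox17*-*Erg* at all 3 time points. In edgeR's test of the difference itself, the gap grew from Day 3 to 4 weeks (adjusted p = 0.0367), a call lost under 8 of 18 alternatives. From Day 3 to Day 7 and from Day 7 to 4 weeks no growth was called (adjusted p of 0.387 and 0.839). *Ntn4* (chr10:93640681-93747207) had 6.77 and 11.98 CPM in control at Day 3, 3.73 and 7.23 CPM at Day 7, and 7.82 and 12.1 CPM at 4 weeks. The values in *Sox17*-*Erg* were 20.8 and 25.4 CPM, then 43.4 and 34.4 CPM, then 159 and 114 CPM. No *Sox17*-*Erg* library overlapped a control library, and each later pair stood above the earlier one. The log2 fold changes were 1.31 ± 0.37 (adjusted p = 0.0488), 2.83 ± 0.39 (adjusted p = 0.00162) and 3.78 ± 0.39 (adjusted p = 0.000234). Within *Sox17*-*Erg* it rose from Day 3 to 4 weeks by 2.56 ± 0.37 on the log2 scale (adjusted p = 0.00184). The Day 3 call was close to the threshold. It was lost under 13 of 21 alternatives, among them 10 of the 12 that leave out 1 library, with adjusted p from 0.0539 to 0.233. The 2 that kept it were those without a control library of Day 7. The Day 7 and 4-week calls held under all 21.

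*Ntn1*, the founding netrin, was higher in *Sox17*-*Erg* at 4 weeks alone among the 3 time points. *Ntn1* (chr11:68209364-68400823) had 6.11 and 6.98 CPM in control and 4.50 and 5.99 CPM in *Sox17*-*Erg* at Day 3. At Day 7 the values were 6.84 and 4.94 CPM in control and 6.12 and 6.55 CPM in *Sox17*-*Erg*, which overlapped. At 4 weeks they were 3.53 and 4.68 CPM in control and 13.6 and 14.1 CPM in *Sox17*-*Erg*. The log2 fold changes were -0.32 ± 0.23 (adjusted p = 0.389), 0.10 ± 0.23 (adjusted p = 0.79) and 1.76 ± 0.23 (adjusted p = 0.00083), and the last was called under all 21 alternatives. From Day 3 to 4 weeks it rose in *Sox17*-*Erg* by 1.40 ± 0.23 (adjusted p = 0.00296).

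The netrin receptors moved in opposite directions. *Unc5b* (chr10:60762593-60831581) was the most abundant of the 10 genes. It had 894 and 977 CPM in control at Day 3, 761 and 641 CPM at Day 7, and 633 and 790 CPM at 4 weeks. In *Sox17*-*Erg* it had 1078 and 1299 CPM, then 1638 and 1360 CPM, then 1390 and 1468 CPM, above the controls each time. The log2 fold changes were 0.35 ± 0.18 (adjusted p = 0.231), 1.10 ± 0.18 (adjusted p = 0.00419) and 1.01 ± 0.18 (adjusted p = 0.00426). The Day 7 call was lost in a fit of Day 7 alone (adjusted p = 0.0541) and without both second control libraries of Day 3 and Day 7 (adjusted p = 0.0672). *Unc5c* (chr3:141465216-141834924) was the gene lower in *Sox17*-*Erg*. It had 3.35 and 2.73 CPM in control at Day 3, 2.27 and 3.74 CPM at Day 7, and 3.38 and 2.68 CPM at 4 weeks, against 0.607 and 1.29 CPM, 1.05 and 1.98 CPM, and 0.885 and 1.15 CPM. The *Sox17*-*Erg* values rested on 12 to 45 counts per library. The log2 fold changes were -1.66 ± 0.46 (adjusted p = 0.0463), -1.0 ± 0.44 (adjusted p = 0.151) and -1.58 ± 0.45 (adjusted p = 0.0328). The Day 3 call was lost under 10 of 21 alternatives and the 4-week call under 8. Leaving out 1 library ended the Day 3 call for 7 libraries (both control ones of Day 3 and of 4 weeks, the first *Sox17*-*Erg* one of Day 3 and both of 4 weeks, adjusted p from 0.0599 to 0.273). It ended the 4-week call for 6 (both control ones of Day 3 and of 4 weeks and both *Sox17*-*Erg* ones of 4 weeks, adjusted p from 0.051 to 0.172). An antisense gene, *Gm15688*, shares 118 exonic bases with *Unc5c* and has no row in the count table.

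*Srgap1*, the Robo adaptor, was higher in *Sox17*-*Erg* at each time point while it fell with time in both arms. *Srgap1* (chr10:121780991-122047315) had 10.8 and 12.5 CPM in control at Day 3, 6.07 and 8.32 CPM at Day 7, and 3.01 and 3.33 CPM at 4 weeks. In *Sox17*-*Erg* it had 21.8 and 21.7 CPM, then 15.3 and 14.5 CPM, then 12.1 and 7.37 CPM, and the arms did not overlap within a time point. The log2 fold changes were 0.89 ± 0.23 (adjusted p = 0.0399), 1.05 ± 0.24 (adjusted p = 0.0168) and 1.62 ± 0.25 (adjusted p = 0.00182). From Day 3 to 4 weeks it fell by 1.88 ± 0.25 on the log2 scale in control (adjusted p = 0.00127) and fell by 1.15 ± 0.24 in *Sox17*-*Erg* (adjusted p = 0.00743). The Day 3 call was lost under 11 of 21 alternatives, 8 of which leave out 1 library (either one of control Day 3, control 4 weeks, *Sox17*-*Erg* Day 3 or *Sox17*-*Erg* Day 7, adjusted p from 0.051 to 0.218). The Day 7 call was lost under 5, among them without the first control or the first *Sox17*-*Erg* library of Day 7 (adjusted p of 0.0964 and 0.0973). A gene of uncertain class, *Gm48804*, shares 131 exonic bases of the same strand with *Srgap1*.

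**Figure D2:**
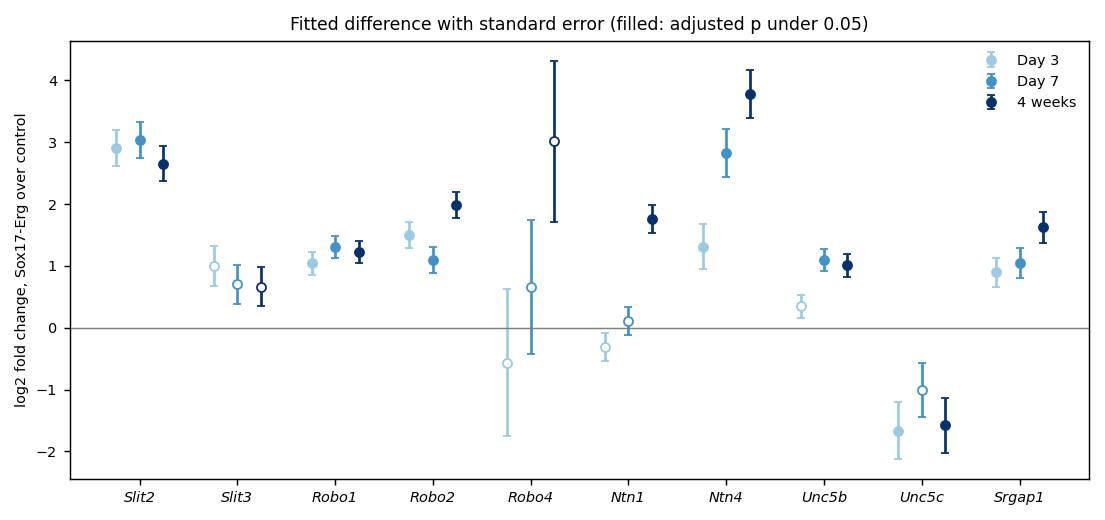
Log2 fold change of *Sox17*-*Erg* over control for each gene at Day 3, Day 7 and 4 weeks, from light to dark blue, with bars for 1 standard error and filled points for an adjusted p under 0.05. *Slit2* lies between 2.65 and 3.04 at all 3, *Ntn4* climbs from 1.31 to 3.78, and *Unc5c* lies below 0 throughout.

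Counted over the 10 genes at Day 3, *Sox17*-*Erg* had 5 higher and 1 lower, where 7.19% of all tested genes were higher and 5.13% lower. At Day 7, 6 were higher and 0 lower, against 9.48% and 7.93% of all tested genes. At an unadjusted p under 0.05, 7 genes passed in edgeR at Day 7, *Unc5c* being the lower one, and DESeq2 called 6 higher and 0 lower. At 4 weeks, 7 were higher and 1 lower, against 11.9% and 11.0%. The median log2 fold change of the 10 genes was 0.95, 1.07 and 1.69 at Day 3, Day 7 and 4 weeks, beside medians of 0.010, 0.006 and -0.014 over all tested genes. Without both second control libraries of Day 3 and Day 7, each of these days kept 1 control library. In that fit the Day 3 log2 fold changes of *Ntn4*, *Srgap1* and *Unc5c* were 1.74, 0.97 and -1.84, and these calls were lost. The calls of *Unc5b* and *Srgap1* at Day 7 (0.97 and 1.28) and of *Unc5c* at 4 weeks (-1.54) were lost as well. In an exact permutation test of the mean log2 CPM difference, two-sided and with labels permuted within time points, which takes the 4 libraries of a time point as exchangeable whatever their replicate number, 8 of the 10 genes reached p = 0.0093, the smallest that the test can give. In the same exact test *Robo4* (p = 0.24) and *Ntn1* (p = 0.25) did not, and the p-values of the 10 genes are not adjusted. A single time point of 2 against 2 libraries could give no p below 0.33. The permutation test was run on the 10 genes alone, so the share of all tested genes that would reach its smallest p is not known.

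The difference between arms was itself compared between time points. From Day 3 to 4 weeks it grew for *Ntn1* by 2.07 ± 0.32 on the log2 scale (adjusted p = 0.0112) and for *Ntn4* by 2.47 ± 0.51 (adjusted p = 0.0367), against 2.22% of all tested genes with a growing and 0.987% with a shrinking difference. The *Ntn1* call held under all 18 alternatives. The *Ntn4* call was lost under 8, 7 of which leave out 1 library (the second control one of Day 3, or either one of control 4 weeks, *Sox17*-*Erg* Day 3 or *Sox17*-*Erg* 4 weeks, adjusted p from 0.0512 to 0.135). For *Slit2* the same difference was -0.25 ± 0.38, for *Robo1* 0.18 ± 0.25 and for *Robo2* 0.48 ± 0.29, none past the threshold (adjusted p of 0.821, 0.793 and 0.464). Between Day 3 and Day 7, and between Day 7 and 4 weeks, edgeR called none of the 10 genes, against 0.0838% and 0.0387% of all tested genes. At an unadjusted p under 0.05, 2 genes passed in each, and DESeq2 called 0 and 1.

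With time alone, 1 gene rose (*Slit3*) and 1 fell (*Srgap1*) in control from Day 3 to 4 weeks, where 13.9% of all tested genes rose and 12.6% fell. In *Sox17*-*Erg*, 4 rose (*Slit3*, *Robo2*, *Ntn1* and *Ntn4*) and 1 fell (*Srgap1*), against 15.1% and 15.6%. From Day 3 to Day 7 *Slit3* was the gene called in each arm (8.76% of all tested genes in control and 3.42% in *Sox17*-*Erg*). Its rise in control was 1.87 ± 0.33 (adjusted p = 0.0142), lost without either library of control Day 3 or the second of control Day 7 (adjusted p from 0.062 to 0.106) or without both second control libraries of Day 3 and Day 7 (adjusted p = 0.292). Its rise in *Sox17*-*Erg* was 1.57 ± 0.33 (adjusted p = 0.0401), lost under 9 of 18 alternatives, among them the replicate block within each time point (adjusted p = 0.0661). From Day 7 to 4 weeks edgeR called none in control (0.393% of all tested genes), with 5 at an unadjusted p under 0.05 and 2 by DESeq2. In *Sox17*-*Erg* it called *Ntn1* (1.13 ± 0.22, adjusted p = 0.0412) and *Ntn4* (1.81 ± 0.36, adjusted p = 0.0406), against 1.82%, and these calls were lost under 12 and 9 of 18 alternatives. The *Ntn1* one was lost with the replicate block within each time point (adjusted p = 0.0533).

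Levels were compared between genes per kilobase of transcript, taking the median length of each gene's coding transcripts in GENCODE. At 4 weeks in *Sox17*-*Erg* the order was *Unc5b* with 300.1 CPM per kb, *Slit3* with 116, *Slit2* with 42.0, *Ntn4* with 37.4, *Robo1* with 10.02, *Robo2* with 8.71, *Ntn1* with 2.38, *Srgap1* with 1.26, *Unc5c* with 0.261 and *Robo4* with 0.181. The libraries of *Slit2* and *Ntn4* overlapped, as did those of *Unc5c* and *Robo4*, so these neighbours were not separated beyond their spread. The order also depends on the length taken. Coding transcripts ran from 5988 to 8591 bases for *Robo2* and from 3595 to 9646 for *Unc5c*, and the order of *Robo1* and *Robo2* changes with the shortest *Robo2* form. In control at 4 weeks *Unc5b* (149 CPM per kb) and *Slit3* (73.4) were also on top, followed by *Slit2* (6.68), *Robo1* (4.29), *Ntn4* (2.73) and *Robo2* (2.21), of which *Ntn4* and *Robo2* overlapped. *Unc5c* (0.780) and *Ntn1* (0.707) overlapped as well, ahead of *Srgap1* (0.409) and *Robo4* (0.0215). The *Robo4* value rests on 3 and 2 counts, at the limit of 3 per library. *Ntn4* thus stood above both Robo receptors in *Sox17*-*Erg*, and *Unc5c* below *Ntn1* and *Srgap1*.

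**Figure D3:**
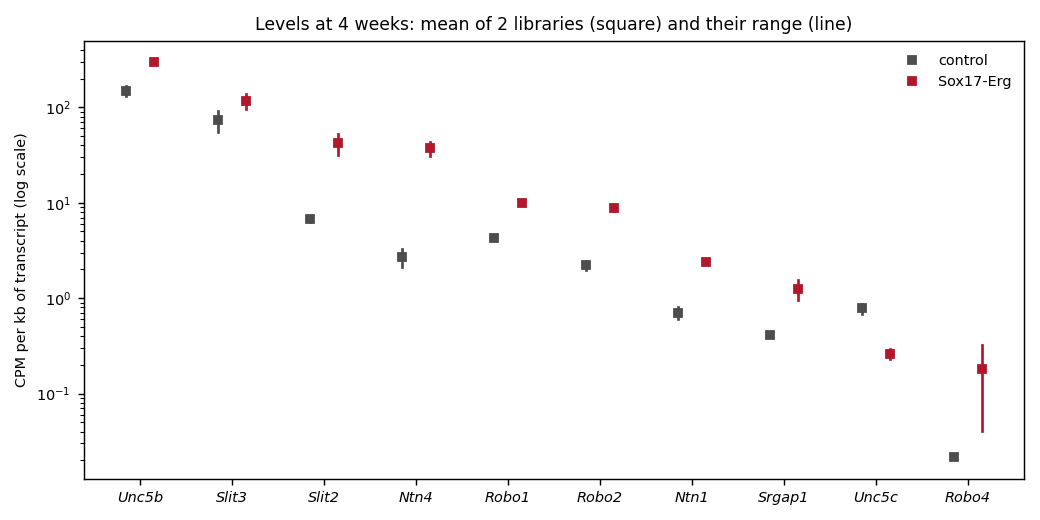
CPM per kilobase of transcript at 4 weeks on a log axis, with control in grey and *Sox17*-*Erg* in red. Squares are means of 2 libraries and lines run from the lower to the higher library. *Unc5b* leads with 149 and 300.1 CPM per kb, and *Robo4* is last with 0.0215 and 0.181.

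Across the 12 libraries, which share the split into arms and the time points, the members' log2 CPM followed each other to different degrees. *Slit2* correlated with *Robo1* (Pearson r = 0.96) and *Robo2* (r = 0.93), and *Robo1* with *Robo2* (r = 0.89). *Slit3* followed *Robo1* less closely (r = 0.26), and *Unc5c* ran against *Slit2* (r = -0.86). Of all tested genes, those with the most similar pattern to *Slit2* were *Glis3*, *Edn1* and *Zfp609* (r from 0.991 to 0.993). *Edn1*, which encodes endothelin-1, was also the nearest to *Robo1*, followed by *Mycl* and *Sox17* (r from 0.975 to 0.981). The nearest to *Robo2* were *Bmx*, *Erlin2* and *Ptchd1* (r from 0.969 to 0.971), to *Ntn4* *Dlgap4*, *Swap70* and *Itga9* (r from 0.971 to 0.981), and to *Unc5b* *Cacna1c*, *Pcdh1* and *Ltbp1* (r from 0.967 to 0.974). For *Unc5c* they were *Dop1b*, *Tango2* and *Fam13c* (r from 0.968 to 0.983), and for *Srgap1* *Nckap5l*, *Tead2* and *Lama4* (r from 0.965 to 0.974). These values describe 12 libraries, and genes picked as the nearest of 15506 are near by choice.

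Partners and effectors of these pathways were read from 3 further lists of 64 genes, of which 59 were tested. At Day 3, *Sox17*-*Erg* had 6 of them higher and 4 lower. At Day 7, 13 were higher and 2 lower, and at 4 weeks 19 were higher and 3 lower, with median log2 fold changes of -0.02, 0.15 and 0.18. As shares of the 59 these were 10.2%, 22% and 32.2% higher, beside 7.19%, 9.48% and 11.9% of all tested genes, and 6.78%, 3.39% and 5.08% lower, beside 5.13%, 7.93% and 11.0%. Among 16 Slit-Robo partners (other Slit, Robo and srGAP genes, heparan sulfate carriers and their enzymes), 0, 3 and 6 were higher and 1, 0 and 0 lower at the 3 time points, and DESeq2 called 1, 4 and 7 higher and 2, 1 and 0 lower. In edgeR 0%, 18.8% and 37.5% of the 16 were higher, beside 7.19%, 9.48% and 11.9% of all tested genes. The lower ones made 6.25%, 0% and 0%, beside 5.13%, 7.93% and 11.0%. *Gpc1*, a glypican that carries the heparan sulfate Slits bind, had 2.97 to 3.23 CPM in control and 59.4 and 69.3 CPM in *Sox17*-*Erg* at 4 weeks. Its log2 fold change of 4.37 ± 0.23 (adjusted p = 1.18e-05) was 3.80 ± 0.29 greater than at Day 3 (adjusted p = 0.000768), a call that held under all 18 alternatives. At Day 3 it was 0.57 ± 0.20 (adjusted p = 0.0944), called with a replicate block over all libraries (adjusted p = 0.037), and at Day 7 1.29 ± 0.20 (adjusted p = 0.00337), lost in a fit of Day 7 alone (adjusted p = 0.0629). Of the 4 heparan sulfate enzymes in the list, *Ndst1* and *Ext1* were higher at Day 7 and 4 weeks, *Hs2st1* at 4 weeks (log2 fold change of 0.50, adjusted p = 0.0409), and *Hs6st1* was not called (0.18, -0.25 and 0.12).

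Of 15 tested netrin partners, 2 were higher at each time point, *Dcc* and *Flrt3*, while 1, 1 and 3 were lower. DESeq2 also called 2 higher each time, with 3, 2 and 4 lower. The 2 higher made 13.3% of the list each time, beside 7.19%, 9.48% and 11.9% of all tested genes, and the lower ones made 6.67%, 6.67% and 20%, beside 5.13%, 7.93% and 11.0%. The other 5 of this list of 20 had too few counts to test. *Neo1*, the gene of neogenin, was lower at Day 3 (log2 fold change of -0.60 ± 0.17, adjusted p = 0.0471). It was not called at Day 7 (-0.12) or 4 weeks (-0.30). *Dcc*, another attractive netrin receptor, had 0 to 7 counts in the control libraries and 17 to 74 in *Sox17*-*Erg*, where it stood at 0.63 to 2.50 CPM. Its log2 fold changes were 3.83 ± 0.57 at Day 3 and 3.23 ± 0.56 at Day 7 (adjusted p of 0.00559 and 0.00496). At 4 weeks the control libraries had 1 count in all against 43, a ratio of 50.2 with an exact 95% interval of 8.54 to 2028 (counting error only). The Day 3 call was lost without the second control library of Day 3 (adjusted p = 0.055). *Flrt3*, a membrane protein that binds Unc5 receptors and Robo1, had 0.488 to 0.884 CPM in control and reached 5.78 and 9.66 CPM at 4 weeks in *Sox17*-*Erg* (log2 fold change of 3.84 ± 0.34, adjusted p = 0.000101). At Day 3 and Day 7 its log2 fold changes were 1.86 ± 0.32 and 1.45 ± 0.32 (adjusted p of 0.00969 and 0.0155), lost without either control library or the first *Sox17*-*Erg* library of the same day (adjusted p from 0.0519 to 0.0892). *Dapk1*, a kinase that binds the Unc5b death domain, was lower at Day 7 (-1.87 ± 0.31, adjusted p = 0.00429) and 4 weeks (-2.53 ± 0.32, adjusted p = 0.00068), with 11.9 and 12.8 CPM against 54.0 and 88.0 in control at 4 weeks. At Day 3 it was -0.97 ± 0.31 (adjusted p = 0.0708), and was called there by DESeq2 (adjusted p = 0.0185) and with the replicate block within each time point (adjusted p = 0.0087).

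Of 28 shared effectors, which carry guidance signals to the cytoskeleton, 4, 8 and 11 were higher and 2, 1 and 0 lower, and DESeq2 gave the same counts. These were 14.3%, 28.6% and 39.3% higher, beside 7.19%, 9.48% and 11.9% of all tested genes, and 7.14%, 3.57% and 0% lower, beside 5.13%, 7.93% and 11.0%. At 4 weeks, where edgeR and DESeq2 called 0 lower, 14 of the 28 passed an unadjusted p under 0.05 in either direction. *Enah*, an actin regulator of the Ena/VASP family that acts below Robo and Dcc, had 4.81 and 5.16 CPM in control and 48.2 and 37.7 CPM in *Sox17*-*Erg* at 4 weeks. The difference on the log2 scale was 0.78 ± 0.27 at Day 3 (adjusted p = 0.0842, and 0.0325 with a replicate block over all libraries), 1.75 ± 0.27 at Day 7 (adjusted p = 0.00326) and 3.11 ± 0.29 at 4 weeks (adjusted p = 0.000135). Without both second control libraries of Day 3 and Day 7, the named partners *Flrt3* and *Dcc* had Day 3 log2 fold changes of 1.75 and 3.36, and these calls were lost. The call of *Flrt3* at Day 7 (1.63) was lost as well.

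**Figure D4:**
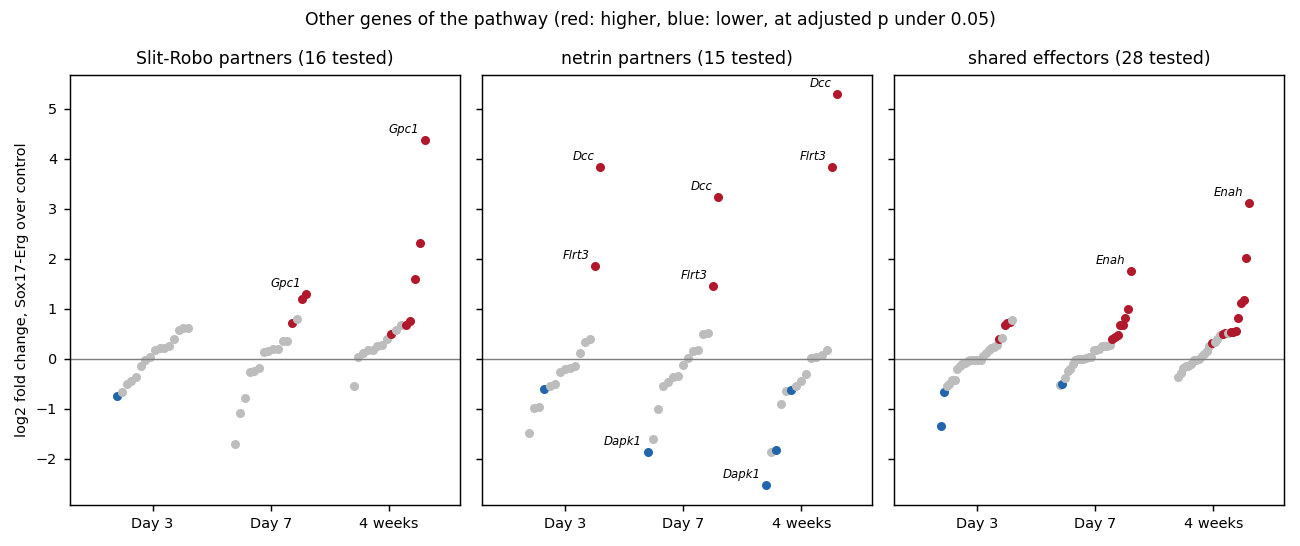
Log2 fold change of *Sox17*-*Erg* over control at Day 3, Day 7 and 4 weeks for the tested genes of the 3 lists, sorted from low to high within each time point. Red points were higher and blue points lower at an adjusted p under 0.05, grey points were not called, and the called values of *Dcc*, *Gpc1*, *Flrt3*, *Enah* and *Dapk1* are named. *Gpc1*, *Dcc* and *Flrt3* reach 4.37, 5.29 and 3.84 at 4 weeks, where the fitted *Dcc* value rests on 1 control count.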

How the data were processed

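Bulk RNAseq of 12 libraries was analysed. Per the labels and the study's methods, stranded mRNA libraries were read with paired 2 × 50 base reads, demultiplexed with bcl2fastq 2.20.0, trimmed of high GC content with BBDuk and quantified with Salmon against mm10. The Salmon version and annotation are not given in the sources used here. The authors deposited estimated counts per Ensembl gene, already rounded to whole numbers and not scaled for library size. Assignment of reads by Salmon can divide them between overlapping genes.

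Samples were grouped by the arm and time point of their labels. The quasi-likelihood test of edgeR 4.0.16 (R 4.3.3) was used (TMM, genes kept by filterByExpr at 10 counts and a total of 15, 1 mean per group, 6 residual degrees of freedom), with calls at a Benjamini-Hochberg adjusted p under 0.05 over 15506 genes. Correlations used log2 CPM with a prior count of 2. Library totals differed by depth, and replicate counts differed far beyond counting error (chi-square per degree of freedom of 28.5 to 73.2), so errors are those of the model. Symbols and positions came from GENCODE M21 (35493 of 35727 genes matched). Alternatives were DESeq2 1.42.0, its size factors, no filter, single time points, stricter thresholds, the replicate number as a block and leaving out libraries. The block within time points and the fit without both second control libraries were added after seeing the data.

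The members and all lists were chosen with earlier results of these data known. Named genes were the 10 members, the 5 partners and effectors with the largest called log2 fold change, the 3 nearest genes of each member called at 2 or more time points, the delivered genes and *Pecam1*, *Cdh5*, *Thy1* and *Tcf21*. Marker lists for endothelial, fibroblast, macrophage, cardiomyocyte, mural, mesothelial, neural and lymphatic cells were read as counts and sums. The heparan sulfate enzymes, *Postn*, *Pdgfra*, *Dcn*, *Lum*, *Prox1*, *Pdpn*, *Stmn2*, *Cldn5*, *Esam*, *Egfl7*, *Neo1* and the genes listed for a changed difference were named after their values were seen. Whether *Sox17* and *Erg* reads came from the viruses or the genome cannot be told from these counts.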

Additional observations from a re-analysis of the deposited data

Results flagged for a closer look

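The difference between *Sox17*-*Erg* and control changed between Day 3 and 4 weeks for 2 of the 10 genes and for 7 of the 59 tested partners and effectors (11.9% of them, beside 2.22% of all tested genes with a growing difference), by the edgeR test of the difference itself with Benjamini-Hochberg adjustment. *Ntn1* gained 2.07 on the log2 scale from Day 3 to 4 weeks (adjusted p = 0.0112) and *Ntn4* gained 2.47 (adjusted p = 0.0367). The *Ntn1* call held under all 18 alternatives and the *Ntn4* call was lost under 8. Both *Sox17*-*Erg* libraries of 4 weeks were above the control libraries for each gene. The 7 were *Srgap3*, *Gpc1*, *Sdc1*, *Enah*, *Evl*, *Fyn* and *Ablim1*, of which *Gpc1* and *Enah* are among the 5 named for their large fold changes. *Gpc1* gained 3.80 from Day 3 to 4 weeks (adjusted p = 0.000768) and 3.07 from Day 7 to 4 weeks (adjusted p = 0.0202), and the second of these was lost under 8 of 18 alternatives, 7 of which leave out 1 library (adjusted p from 0.0509 to 0.105). *Enah* gained 2.32 from Day 3 to 4 weeks (adjusted p = 0.0144), which was lost under 4, 3 of which leave out 1 library: the first control one of Day 3 or of 4 weeks, or the first *Sox17*-*Erg* one of 4 weeks (adjusted p from 0.0595 to 0.0634). With 2 libraries a group, no single library was tested for standing apart within its group.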

How the results depend on the processing

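For single genes, 638 values with 1 library left out and 421 under other alternatives kept their side of the threshold, 92 and 29 were no longer called, 2 and 19 were newly called, and no called value reversed. Values that were not called could change sign, as that of *Robo4* did at Day 3 without the second control library (1.08) and at Day 7 without the first (-0.19). Leaving out 1 library each, the lone library of its group being assumed to vary like the other groups, gave 2 to 5 members higher and 0 to 1 lower at Day 3, and 0 to 1 lower at 4 weeks. Of the pathway genes, between 0 and 6 (Day 3), 7 and 14 (Day 7) and 11 and 19 (4 weeks) were higher, and between 1 and 6 (Day 3) and 1 and 3 (Day 7) lower. Members with a different effect from Day 3 to 4 weeks ranged from 1 to 2. Between Day 3 and Day 7, 0 to 2 members changed in control and 0 to 1 in *Sox17*-*Erg*, where 0 to 2 changed between Day 7 and 4 weeks. DESeq2 gave 7 and 4 pathway genes lower at Day 3 and Day 7, 1 member with a different effect from Day 7 to 4 weeks, and 2 members changed in control in each of the 2 shorter intervals. With no filter, 7 and 5 pathway genes were lower, 1 member differed in effect in each shorter interval, control cultures had 4 and 3 changed members, and 2 changed between Day 3 and Day 7 with *Sox17*-*Erg*. Fits of single time points gave 0 members lower and 7 pathway genes lower at Day 3, and 4 higher at Day 7. At an adjusted p under 0.01, 3 members were higher and 0 lower at Day 3, and 0 lower at 4 weeks. DESeq2 size factors and a minimum log2 fold change of 1 moved no count of members by over 1.5 times. Without both second control libraries of Day 3 and Day 7, 3 members were higher and 0 lower at Day 3, 0 lower at 4 weeks, 1 differed in effect from Day 3 to 4 weeks, 0 changed between Day 3 and Day 7 in control, and 1 changed between Day 7 and 4 weeks in *Sox17*-*Erg*. In that fit, Day 3 had 0 higher and 1 lower pathway gene and Day 7 had 7 higher. The share of all tested genes called was not worked out for the alternative fits. The causes were not tested.

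The replicate number of the labels was also used as a block. Across genes, libraries that share a number deviated together with a correlation of 0.19, 0.30 and 0.17 at Day 3, Day 7 and 4 weeks, and no label says what a number marks. With the replicate block over all libraries, 5, 6 and 7 members were higher and 4 pathway genes lower at Day 7. With the replicate block within each time point, 6, 7 and 7 members were higher, Day 3 had 11 higher and 7 lower pathway genes, Day 7 had 4 lower, 1 member changed between Day 7 and 4 weeks in control, and 0 changed between Day 3 and Day 7 in *Sox17*-*Erg*. Depth limits *Robo4*, *Unc5c* and *Dcc*, which had at most 135 counts in any library. *Robo4* fell below the filter in the fits of Day 3 alone and 4 weeks alone, which gave no value.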
